A study of Mus musculus with 4 samples.

Results

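The genes described here are 43 named members of the interferon response, the set of antiviral, immune and regulatory genes that cells switch on when type I or type II interferon binds its receptors. They were chosen by name, with earlier results of these data known. Each was read through the probes whose RefSeq accession belongs to it, the brightest probe standing for a gene with several. Of the 43 members, 41 had a matched probe, among 37042 genes or unnamed transcripts measured. Mx1 and Mx2, which encode dynamin-like antiviral GTPases, had no matched probe and were not analysed here. RNA came from primary chondrocytes, the matrix-producing cells of cartilage, of 6-day-old C57BL/6J mice. Both genotypes were homozygous for a floxed allele of Rela. Mice with the floxed allele alone (Rela fl/fl) are called control here, and the conditional knockout (cKO) also carried Prrx1-Cre, in which Cre is driven by the promoter of a gene of the early limb mesenchyme. Cells of each genotype were cultured for 3 days with 10 ng ml−1 tumour necrosis factor (TNF) or without it, and each of the 4 combinations was measured on 1 array with 1 dye. There is no replicate, so no test between conditions was run and every difference below is a difference between 2 arrays. How many mice gave the cells of an array is not stated in the sources used here.

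Type I interferons act through the receptor Ifnar1–Ifnar2 and the kinases Jak1 and Tyk2, which lead to the factor ISGF3, which holds Stat2 and Irf9. ISGF3 binds the interferon-stimulated response element, while type II interferon acts mainly at the gamma-activated site. Rela is the main activating subunit of canonical NF-κB, which TNF switches on, and NF-κB takes part in inducing interferon-β and some interferon-stimulated genes such as Irf1. Which of these genes need Rela for their level with or without TNF is the question that the 4 arrays address for this list.

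Signals are given relative to the array's own 75th percentile, so that a signal of 1 is the 75th percentile of that array, and differences are on the log2 scale. From the probes spotted 10 times on each array, the technical spread of a difference was 0.14 on the log2 scale, which covers spot-to-spot error only. On each array, 50.9% to 58.1% of probes were well above background. The targeted gene, Rela, had a signal of 28.4 and 34.9 in control cells without and with TNF, and of 34.0 and 40.2 on the matching cKO-labelled arrays, so the probe did not show the deletion. Whether the probe lies in the deleted part is not given in the sources used here. The study checked recombination of the allele by PCR in chondrocytes of this genotype and Rela RNA by RT-PCR in tissues of such mice, and whether the RNA of these arrays was checked is not stated. The X-inactivation transcript Xist was well above background on the control arrays only (signals of 0.719 and 0.755), and the Y-linked Ddx3y was higher on the cKO-labelled arrays, with signals of 1.31 and 1.30 against 3.67 and 4.24. The genotype label and the sex of the cells therefore cannot be told apart in any comparison of genotypes. Chondrocyte markers were present on every array, with signals of 584 to 610 for Col2a1, the main collagen of cartilage. Of the leukocyte markers 8 of 10 matched were above background on all arrays and Ptprc on none. The specificity of these probes was not tested, so they do not show how many leukocytes the cultures held. Bright patches, regions with many spots whose signal on 1 array was 2-fold or more that on every other array, held 10.7% and 7.18% of spots on the control arrays without and with TNF, and 9.42% and 1.04% on the cKO-labelled arrays. At least 1 spot in a patch was found for 13 of the 41 matched members.

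The promoters of the members show what they share that their choice did not use directly. Among 33 members with an entry in the RefSeq promoter table (GRCm38.p6, 250 bases before to 50 after the start site), 18 (54.5%) held the core of the interferon-stimulated response element, GAAA and GAAA separated by 2 bases, on either strand. The core was found in 3.44% of the 32851 promoters of this length, and in 3.99% of the 27025 genes they belong to. The gamma-activated site, TTCNNNGAA, was found in 12 of the 33 members and in 9.55% of genes, and the NF-κB consensus in 9 members (Bst2, Gbp2, Ifit2, Ifitm3, Irf1, Irf2, Isg20, Oas3 and Oasl1) and again in 9.55% of genes. Matches of different motifs overlap in Bst2, Ifit2 and Ifitm3. Stretches of 60 bases around the cores are printed for members whose signal was lower on both cKO-labelled arrays (Isg15, Ifit1, Oas1a, Bst2 and Igtp), for Gbp2, whose signal differed with TNF, and for Ifit3, which was higher on both cKO-labelled arrays. They read 5′ to 3′ in the direction of the gene, and capitals mark the cores on either strand, so that overlapping cores form 1 longer run. Ifit3 holds another core, at −156, of which the stretch printed takes in the last base alone, in lower case.
Isg15: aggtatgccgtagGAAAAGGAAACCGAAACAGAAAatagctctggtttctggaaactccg
Ifit1: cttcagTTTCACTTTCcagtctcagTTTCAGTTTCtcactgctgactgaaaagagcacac
Oas1a: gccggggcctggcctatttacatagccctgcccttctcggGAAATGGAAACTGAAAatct
Bst2: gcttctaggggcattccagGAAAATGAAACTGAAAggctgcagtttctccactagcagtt
Igtp: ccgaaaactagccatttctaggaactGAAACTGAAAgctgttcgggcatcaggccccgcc
Gbp2: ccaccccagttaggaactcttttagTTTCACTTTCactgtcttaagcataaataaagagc
Ifit3: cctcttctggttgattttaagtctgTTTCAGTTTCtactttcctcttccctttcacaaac
In GRCm38.p6 these are chr4:156200850-156200909 (minus strand, Isg15), chr19:34640779-34640838 (plus, Ifit1), chr5:120907526-120907585 (minus, Oas1a), chr8:71537562-71537621 (minus, Bst2), chr11:58199496-58199555 (plus, Igtp), chr3:142620579-142620638 (plus, Gbp2) and chr19:34583382-34583441 (plus, Ifit3), all upstream of the start site. Isg15 held 3 overlapping cores that begin at −78, −72 and −66 from the start site, and Oas1a held a pair that begin at −20 and −14. A match describes the letters of these windows, and binding was not measured.

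Across the members, few passed a 2-fold difference with TNF, and the signal was more often lower than higher on the cKO-labelled arrays. Of the 41 matched members, 32 were well above background on all 4 arrays, 6 on 1 to 3 arrays and 3 (Irf8, Oas3 and Gbp4) on none. A member was called at a log2 difference of 1, a 2-fold difference, when 1 or both of the 2 arrays passed the scanner's flag for well above background. With TNF in control cells, 4 of 37 members (Gbp2, Ifi44, Iigp1 and Parp14) were called higher, against 2.39% of all genes, and 1 (Oas2) lower, against 4.27%. The values of Ifi44, Iigp1 and Oas2 come from patches. With all spots in patches left out, 2 members (Gbp2 and Parp14) were higher, against 0.559% of genes, and 0 lower, against 0.671%. With another background correction, the model-based normexp, Ifi44 and Gbp2 were the 2 called higher, against 1.52% of genes, and 0 were lower, against 2.76%. In the main setting the median difference of the members was 0.24, against 0.01 over all genes. On the cKO-labelled arrays, TNF gave 0 members higher of 36, against 1.02% of genes, and 2 (Gbp3 and Cmpk2) lower, against 4.46%. Both rest on patch spots, and 0 members were called in either direction with patches left out, where 0.899% of genes were higher and 1.56% lower. The median of the members was 0.06, equal to that of all genes at this precision. Without TNF, 1 of 35 members (Gbp3) was higher on the cKO-labelled array, against 3.51% of genes, and 3 (Isg15, Dhx58 and Oas2) were lower, against 4.4%. The values of Gbp3 and Oas2 again come from patches, without which 0 members were higher, against 1.26%, and 2 lower, against 1.07%. With TNF, 0 of 37 members were higher, against 1.16%, and 6 (Gbp2, Ifi44, Oasl2, Parp14, Ifit1 and Isg15) were lower, against 3.21%. Of the 6, Ifi44 is the one with a patch value. With patches left out 6 were lower as well, against 0.946% of genes, with Irf1, then read as a bound from its dim second probe, in the place of Ifi44, and 0 were higher, against 1.04%. The medians of the members were −0.15 without TNF and −0.45 with it, where all genes had medians of 0.00 and 0.05. Members dim on both arrays of a comparison are not in its count, and the shares describe single pairs of arrays. Lower RNA per cell and fewer cells of a kind that carries the RNA cannot be told apart in such bulk samples.

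**Figure D1:**
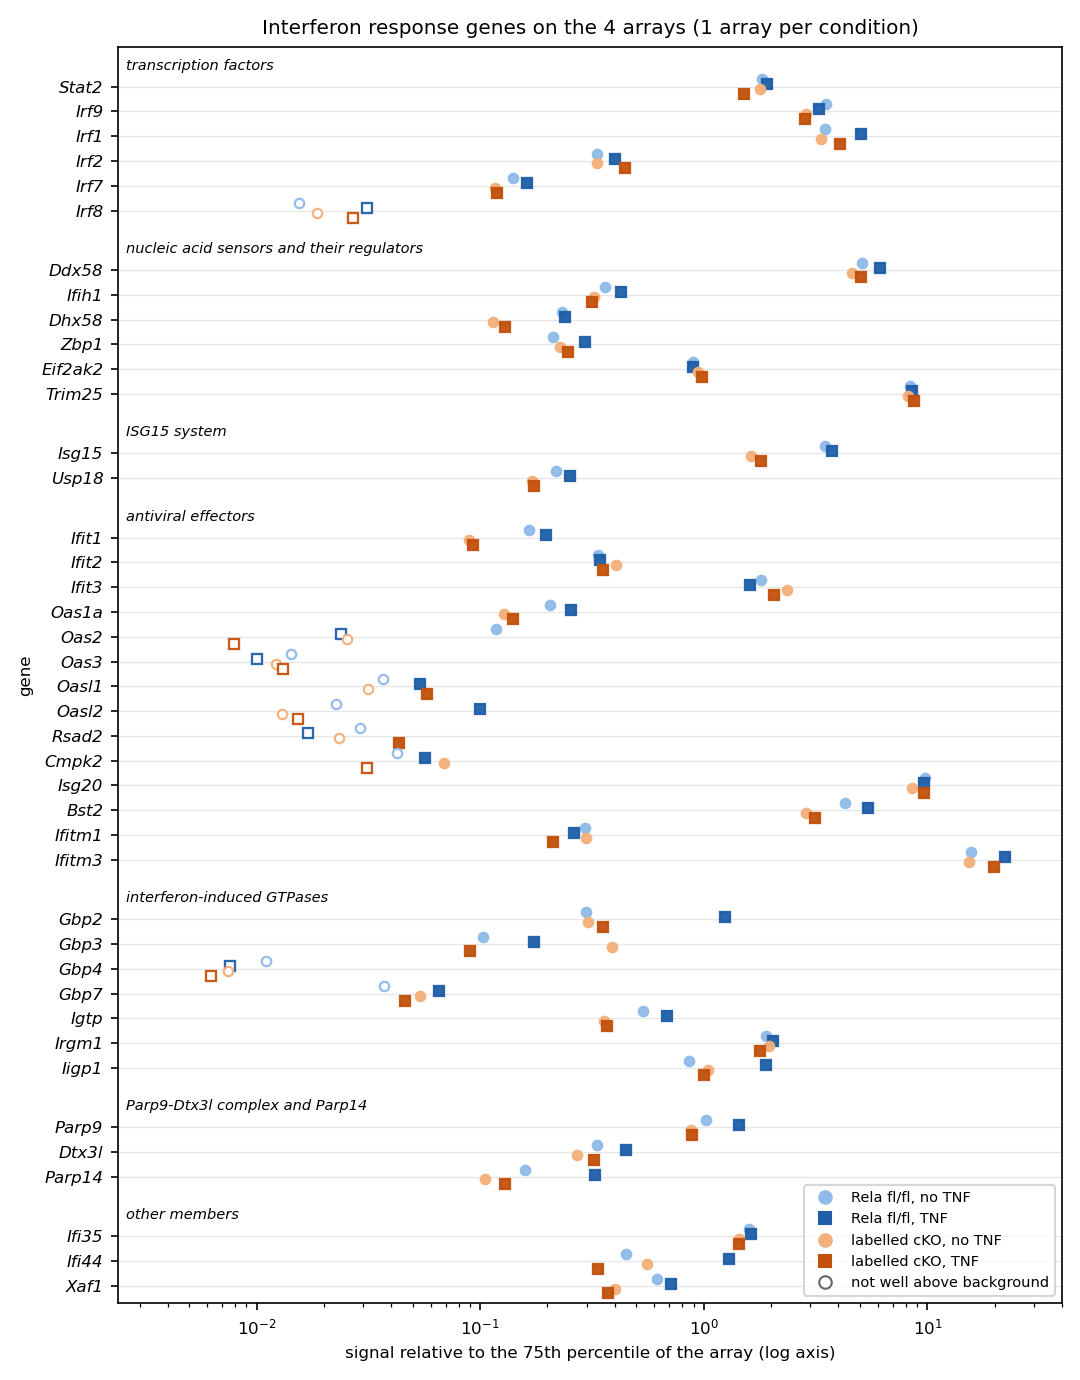
Signal of the 41 matched interferon response genes on the 4 arrays, on a log axis where 1 is the 75th percentile of the array; each marker is 1 array, circles without and squares with TNF, blue for control (Rela fl/fl) and orange for cKO-labelled arrays, and open markers were not well above background. For Isg15, Dhx58, Ifit1, Oas1a, Bst2 and Igtp the blue markers lie to the right of the orange ones with and without TNF, and for Gbp2 the control array with TNF stands alone at 1.25. Other members lie the same way, among them Usp18, Xaf1, Parp14, Parp9, Dtx3l, Irf7 and Irf9. Ifit3, Ifit2 and Eif2ak2 lie the other way, and the share of all genes with such an order was not computed.

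No transcription factor of the response passed a difference of 1 in any comparison on its brightest probe. Stat2, the ISGF3 subunit that carries the activation domain, had signals of 1.83 and 1.91 in control cells without and with TNF and of 1.78 and 1.51 on the cKO-labelled arrays. Irf9, its DNA-binding subunit, had signals of 3.52, 3.28, 2.86 and 2.84 in the same order. The largest difference in either gene was −0.34, for Stat2 between the genotypes with TNF. Irf1, an activator that TNF and interferon both induce in many cell types, was highest in control cells with TNF, at 5.03 against 3.49 without it, a difference of 0.53. On the cKO-labelled arrays Irf1 had signals of 4.07 with and 3.35 without TNF, a difference of 0.28, and the spot of the array without TNF lies in a patch. A second, dim probe of Irf1 was well above background only in control cells with TNF, at a signal of 0.073. With patches left out this dim probe alone is left, and it gives bounds only, of 0.47 with TNF in control cells and of −1.29 between the genotypes with TNF. Irf2, which binds the same element as Irf1 and often opposes it, had signals of 0.332 and 0.402 in control cells and of 0.332 and 0.445 on the cKO-labelled arrays, with differences with TNF of 0.28 and 0.42 and again a patch on the cKO-labelled array without TNF. Irf7, which amplifies type I interferon production, had signals of 0.140 and 0.161 in control cells and of 0.117 and 0.118 on the cKO-labelled arrays. Its difference between the genotypes was −0.26 without and −0.45 with TNF. Irf8, a factor of myeloid cells, was not well above background on any array.

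Among the sensors of foreign nucleic acid, Dhx58 stood apart from its relatives. Dhx58 encodes LGP2, which regulates the RNA helicase sensors, and had signals of 0.233 and 0.239 in control cells without and with TNF against 0.114 and 0.129 on the cKO-labelled arrays. The genotypes differed by −1.03 without and −0.89 with TNF. With normexp these differences were −0.70 and −0.56. Ddx58, encoding the sensor RIG-I, gave signals of 5.09, 6.12, 4.59 and 5.03 (control without and with TNF, then cKO-labelled without and with TNF), so its genotype differences were −0.15 and −0.28. A second probe of Ddx58 had a difference of 0.22 without TNF, on an array where its spot lies in a patch, and of −0.26 with TNF. Ifih1, encoding the sensor MDA5, differed between the genotypes by −0.15 without TNF, where the spot of the cKO-labelled array lies in a patch, and by −0.42 with TNF. Trim25, the ubiquitin ligase that activates RIG-I, had signals of 8.19 to 8.73 on the 4 arrays, and Eif2ak2, the RNA-activated kinase PKR, of 0.895 to 0.986. Zbp1, a sensor of Z-form nucleic acid, was 0.49 higher with TNF in control cells and 0.12 higher on the cKO-labelled arrays. Over the alternative settings these differences ranged from 0.20 to 0.55 and from −0.06 to 0.31.

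Isg15, a ubiquitin-like protein that is attached to other proteins during the response, had signals of 3.50 and 3.74 in control cells without and with TNF. On the cKO-labelled arrays its signals were 1.63 and 1.81. The difference between the genotypes was −1.10 without and −1.05 with TNF, a 2.15-fold and a 2.07-fold lower signal, while TNF itself moved the signal by only 0.10 and 0.15. A second Isg15 probe gave differences of −1.13 and −0.93 between the genotypes. Usp18, the enzyme that removes ISG15 and restrains the type I receptor, had signals of 0.218 and 0.251 against 0.170 and 0.174. Its differences between the genotypes were smaller than those of Isg15, at −0.36 without and −0.53 with TNF. With normexp the one without TNF was −0.22, within 2 technical spreads.

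The antiviral effectors differed between the genotypes in both directions. Ifit1, which binds viral RNA lacking the host's cap methylation, had signals of 0.165 and 0.197 in control cells without and with TNF and of 0.0888 and 0.0933 on the cKO-labelled arrays, differences of −0.89 and −1.08. With normexp they were −0.45 and −0.55. Its neighbour on chromosome 19, Ifit3, lay the other way, with signals of 1.79 and 1.61 against 2.36 and 2.05 on the cKO-labelled arrays, differences of 0.40 and 0.35. Ifit2 differed by 0.27 without and 0.05 with TNF. The genotype differences of these 3 related genes thus had both signs. Probe sequences were not used here, so cross-reading between close relatives in the Ifit, Oas and Gbp families was not tested. Oas1a, an enzyme that makes the second messenger of RNase L, had signals of 0.204 and 0.254 against 0.128 and 0.140, differences of −0.68 and −0.85. Over the alternative settings these ranged from −0.74 to −0.42 and from −0.92 to −0.49. Bst2, also called tetherin, which holds budding virus at the cell surface, had signals of 4.28 and 5.44 against 2.88 and 3.15. For Bst2 the genotypes differed by −0.57 without and −0.79 with TNF. Isg20, an exonuclease, had signals of 8.51 to 9.80, and its 4 arrays differed by at most 0.20. Ifitm3, a membrane protein that blocks viral entry, was among the brightest probes, at 15.6 and 22.3 in control cells without and with TNF and at 15.3 and 19.9 on the cKO-labelled arrays. It was higher with TNF in both genotypes, by 0.51 and 0.37, with at least 1 of its spots in a patch. The SD over its 9 or 10 spots on an array was 0.05 to 0.08 on the log2 scale. Ifitm1, a relative of it, differed with TNF by −0.49 on the cKO-labelled arrays and by −0.15 in control cells.

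Several effectors lay near background and give bounds only. A dim signal counted as the higher of itself and the lowest signal that passed the background flag on its array, and a fold against it is a lower bound. Oasl2, a relative of the OAS enzymes, was well above background only in control cells with TNF, at a signal of 0.0999, at least 1.90-fold higher than without TNF and at least 3.75-fold higher than on the cKO-labelled array with TNF. Oas2 was well above background only in control cells without TNF, at 0.118 in a patch, at least 3.20-fold above the array with TNF and at least 4.57-fold above the cKO-labelled array. Cmpk2, a nucleotide kinase next to Rsad2, was well above background in control cells with TNF (0.0566) and on the cKO-labelled array without TNF (0.0686, in a patch), the latter at least 2.20-fold above the array with TNF. Rsad2, encoding viperin, was well above background only on the cKO-labelled array with TNF, and Oasl1 on both arrays with TNF. Of these 5 genes, Oasl2 and Rsad2 had no spot in a patch. None of them can be ordered among the arrays where they were dim.

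Among members well above background on both arrays, Gbp2 had the largest difference with TNF in control cells. Gbp2, a guanylate-binding protein that attacks the vacuoles of intracellular microbes, had a signal of 0.296 without TNF and of 1.25 with TNF in control cells. On the cKO-labelled arrays its signals were 0.302 and 0.354. The array with TNF of control cells thus stood above the other 3, by 2.07 on the log2 scale (4.21-fold) over its own genotype, against 0.23 on the cKO-labelled arrays, and no spot of Gbp2 lies in a patch. Without TNF the genotypes differed by 0.03. Over the alternative settings the difference with TNF in control cells ranged from 1.75 to 2.12. Iigp1, an immunity-related GTPase, had signals of 0.858 and 1.89 in control cells and of 1.04 and 1.01 on the cKO-labelled arrays, but its spot of the array at 1.89 lies in a patch, and a second probe was not well above background on any array. Gbp3 had signals of 0.102 and 0.175 in control cells and of 0.389 and 0.0898 on the cKO-labelled arrays, and the spots at 0.175 and 0.389 lie in patches. The one value far above the others, 0.389, was thus a patch value. Igtp (IRGM3) was spotted 10 times per array and had signals of 0.537 and 0.687 in control cells and of 0.359 and 0.370 on the cKO-labelled arrays, with an SD over its 9 or 10 spots of 0.088 to 0.095 on the log2 scale. Its lowest spot was 0.480 in control cells and its highest was 0.420 on the cKO-labelled arrays. Spots on 1 array are technical repeats, and at least 1 of those of Igtp lies in a patch. Irgm1, which controls the other members of its family, differed by at most 0.20 in any comparison on its brightest probe. Its second probe, with no spot in a patch, differed by −0.41 between the genotypes with TNF and by at most 0.20 in the remaining comparisons. Gbp7 differed between the genotypes by −0.50 with TNF, with a patch on the control array.

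Parp14, Parp9 and Dtx3l lie in 1 cluster in the genome, and Parp9 and Dtx3l form an ADP-ribosylating ubiquitin ligase that enhances interferon signalling. Parp14, an ADP-ribosyltransferase, had signals of 0.159 and 0.325 in control cells without and with TNF and of 0.106 and 0.129 on the cKO-labelled arrays. It was 1.03 higher with TNF in control cells and 0.29 higher on the cKO-labelled arrays, and the genotypes differed by −0.59 without and −1.33 with TNF. With normexp the difference with TNF in control cells was 0.66, and that between the genotypes with TNF was −0.87. Parp9 was higher with TNF by 0.50 in control cells and by 0.01 on the cKO-labelled arrays. Dtx3l was higher by 0.43 and 0.26. On their brightest probes all 3 genes were thus more than 2 technical spreads (0.28) higher with TNF in control cells, all 3 were lower on the cKO-labelled array with TNF, with differences of −0.47 to −1.33, and none of these probes has a spot in a patch. Dtx3l has a second, dim probe, well above background on 2 arrays, and with the mean over both probes the difference between the genotypes with TNF was −0.20, within 2 technical spreads. The same mean for TNF in control cells, 0.09, takes in a signal that was not well above background. Of the remaining members, Xaf1, a pro-apoptotic antagonist of XIAP, had signals of 0.616 and 0.717 against 0.399 and 0.374 on the cKO-labelled arrays, with a patch on the cKO-labelled array without TNF. Ifi44 had signals of 0.451 and 1.29 in control cells and of 0.555 and 0.336 on the cKO-labelled arrays, and the spot at 1.29 lies in a patch. Ifi35 had signals of 1.44 to 1.62.

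With TNF in control cells, 14 of the 32 members above background on all arrays were more than 2 technical spreads higher, against 9.31% of the 20482 genes above background on all arrays, 0 were as far lower, against 9.54%, and 18 lay within that range. Of the 14, 5 (Ifi44, Gbp3, Igtp, Iigp1 and Ifitm3) have a spot in a patch on at least 1 of these arrays. With patches left out 9 of 25 were higher, against 8.46%, namely Oas1a, Gbp2, Igtp, Parp9, Parp14, Dtx3l, Zbp1, Bst2 and Ifitm3. Igtp and Ifitm3 were then read from their remaining spots. Irf1 and Irf2, with a patch on the cKO-labelled array without TNF, were no longer among the 25. On the cKO-labelled arrays, 4 were higher, against 10.3% of genes, 3 lower, against 10.4%, and 25 within the range. The 14 included all 3 of Parp14, Parp9 and Dtx3l and 4 of the 5 GTPases measured on all arrays, of which Gbp3, Igtp and Iigp1 are among those with a patch. The limit of 2 technical spreads was taken after the values had been seen. The comparisons of TNF in the 2 genotypes share no array, and 4 members (Irf1, Irf2, Parp14 and Ifitm3) were higher in both, 12.5% of 32 against 2.72% of genes. Of these, Parp14 is the one with no spot in a patch. This count depended on the setting. It was 0 with the percentile over probes above background (1.55% of genes) and with the authors' values (1.47%), 1 without scaling (Irf2; 1.75%) and with normexp (Ifitm3; 1.77%), 2 of 25 with patches left out (Parp14 and Ifitm3; 2.66%) and 7 with quantile normalization (4.02%). The counts on the cKO-labelled arrays alone moved as well. Without scaling, with the percentile over probes above background and with the authors' values, 1 member was higher, against 4.55% to 4.88% of genes, and 6 were lower, against 16.0% to 16.9%. With quantile normalization 8 were higher, against 15.1%, with normexp 2, against 7.33%, and with patches left out 2 of 25 were higher and 1 lower, against 10.4% and 9.29%. With the mean over probes 5 were higher, against 10.5%, and 5 lower, against 12.4%. In the main setting 0 were lower in both, against 2.54% of genes. Of the 7 members above background on all arrays that hold the NF-κB consensus in their promoters, Irf1, Irf2 and Ifitm3 were higher in both genotypes in the main setting and Bst2, Gbp2, Ifit2 and Isg20 were not, and Parp14 has no entry in the promoter table.

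**Figure D2:**
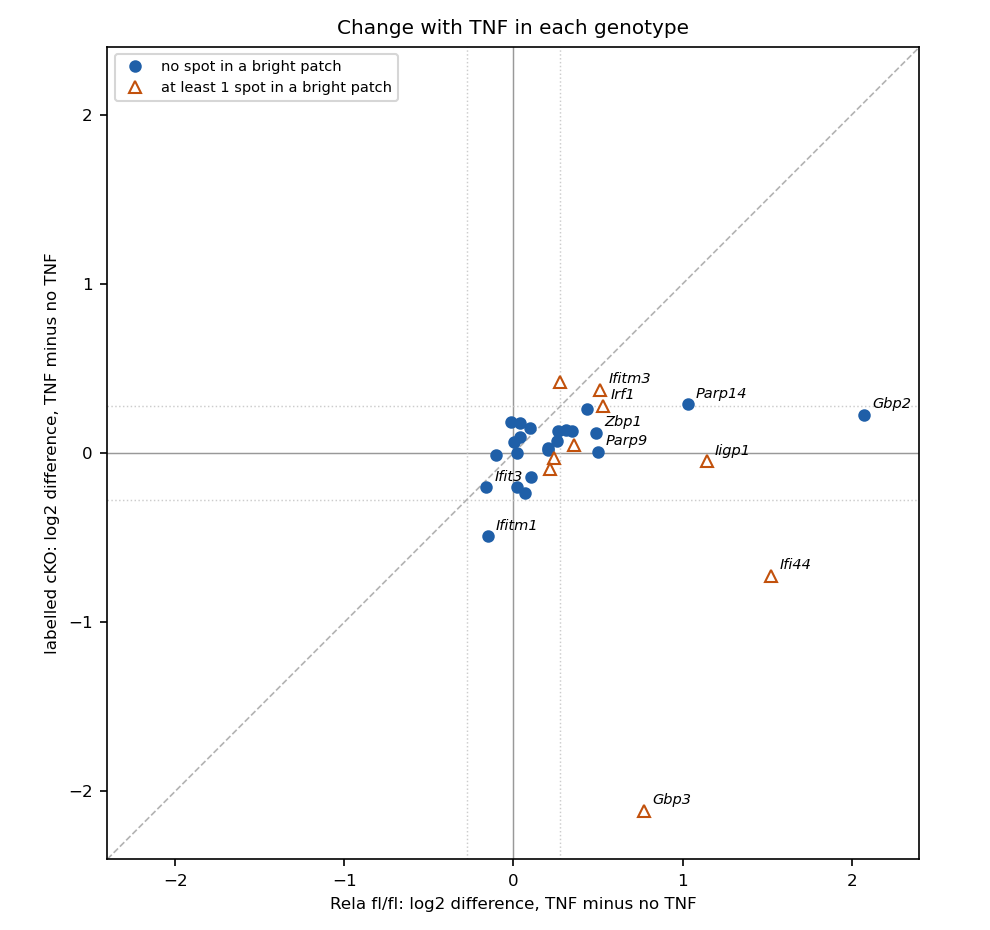
Log2 difference with TNF in control cells (horizontal) and on the cKO-labelled arrays (vertical) for the 32 members well above background on all 4 arrays; each marker is 1 gene, triangles have at least 1 spot in a bright patch, dotted lines mark 2 technical spreads and the dashed line equal differences. Gbp2 and Parp14 are the markers without a patch that lie past 1 on the horizontal axis, at 2.07 and 1.03, and their vertical values are 0.23 and 0.29.

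Between the genotypes, 11 of the 32 members were lower on the cKO-labelled array by more than 2 technical spreads without TNF, against 10.6% of genes, and 21 with TNF, against 9.67%. Higher were 4 without TNF, against 13.7%, and 1 with TNF, against 13.9%. With patches left out, which removes Ifi44, Gbp3 and Iigp1, 1 of 25 (Ifit3) was higher without TNF, against 13.2%. These comparisons share no array either. In both, 10 of the 32 members (31.25%) were lower on the cKO-labelled array by more than 2 technical spreads, against 3.57% of the 20482 genes. They were Isg15, Usp18, Ifit1, Oas1a, Bst2, Dhx58, Igtp, Parp14, Dtx3l and Xaf1, of which Igtp and Xaf1 have a spot in a patch. They thus cover the ISG15 system, antiviral effectors, a sensor regulator, a GTPase and the Parp14–Dtx3l pair, and the GTPases Gbp2, Irgm1, Gbp3 and Iigp1, measured on all arrays as well, are not among them. In both, 1 member (Ifit3) was higher, against 4.85% of genes. As the list was chosen with earlier results known and the limit after the values were seen, these shares describe and do not test. Over the main setting and the alternative scalings, background correction, probe rule and patch rule, 9 to 11 members were lower in both. Isg15, Ifit1, Oas1a, Bst2, Dhx58, Igtp and Parp14 were among them in each of these settings, and Usp18, Dtx3l and Xaf1 were not. With all spots in patches left out there were 9 of 25 members, against 3.28% of genes. Of the 10, 7 have an entry in the promoter table and 5 of them hold the core of the interferon-stimulated response element (Bst2, Ifit1, Igtp, Isg15 and Oas1a). Among the other 22 members above background on all arrays, 10 of 19 with an entry hold it. As the same arrays also differ in Xist and Ddx3y and the signal of Rela was not lower, the part of the deletion in these differences was not tested.

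**Figure D3:**
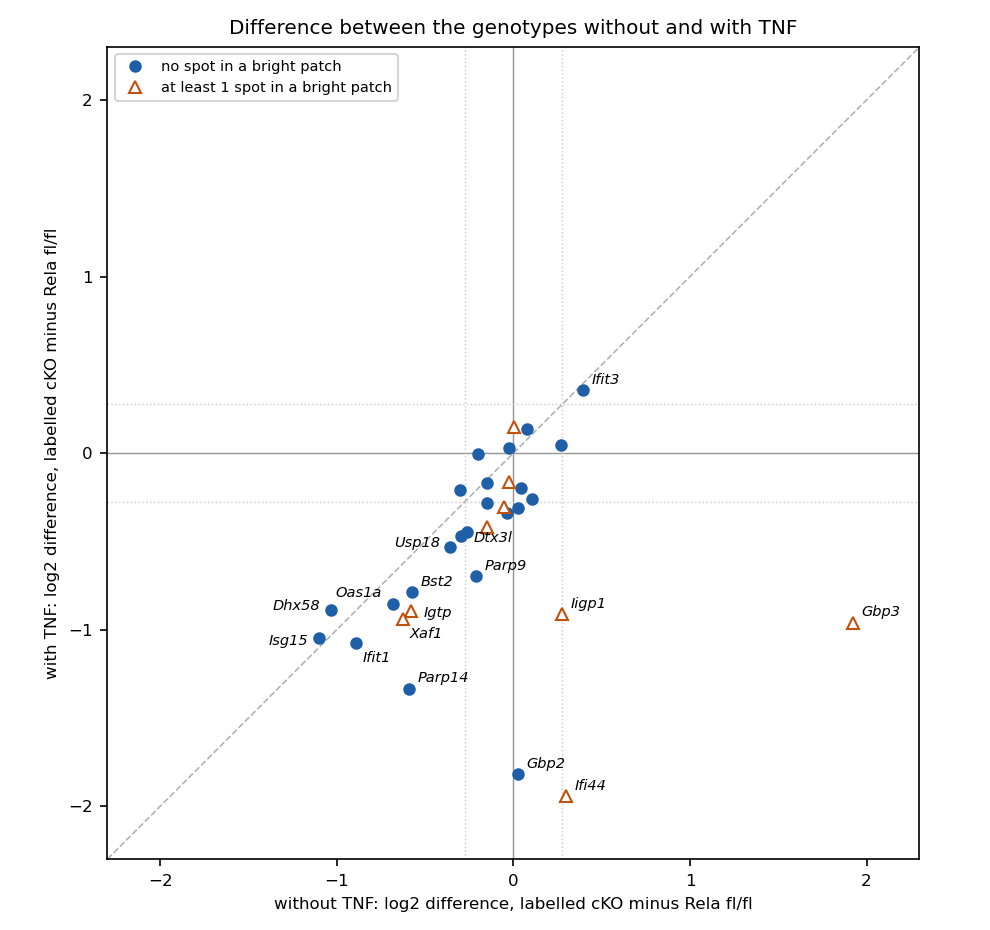
Log2 difference between the cKO-labelled array and the control array without TNF (horizontal) and with TNF (vertical) for the 32 members well above background on all 4 arrays, with markers and lines as for the plot of TNF differences. The 10 members below the dotted lines on both axes run from Dtx3l at −0.30 and −0.47 to Isg15 at −1.10 and −1.05, and Gbp2 and Ifi44 are low on the vertical axis only.

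The rest of the pathway was measured with lists of its own. Of the interferons with a probe, Ifnb1, Ifna4, Ifng, Ifnk and Ifne were not well above background on any array. Ifna1, Ifna2 and Ifnl3, members of families of close relatives, were above background on all arrays, with signals of 0.155 to 0.195, 0.073 to 0.114 and 0.410 to 0.433, all within 1 on the log2 scale in each comparison. Of the receptor chains, Ifnar1 had signals of 3.81 to 4.24 and Ifnar2 of 6.41 to 7.63, with differences of at most 0.16 and a patch for Ifnar2 on the control array without TNF. Ifngr1, a chain of the type II receptor, had signals of 4.39 to 5.41 and was 0.30 higher with TNF in control cells and 0.14 higher on the cKO-labelled arrays. Ifngr2, the second chain of the type II receptor, was higher with TNF by 0.60 in control cells and by 0.44 on the cKO-labelled arrays, with a patch on the latter without TNF. No gene of the interferons and receptors (9 tested), of JAK–STAT signalling (11 tested) or of nucleic acid sensing and interferon induction (13 tested) passed a difference of 1 in any of the 4 comparisons. Over all genes, 1.02% to 4.46% passed it per comparison and direction, so 0 in lists of 9 to 13 genes is near that share. Above background on all arrays were 9, 10 and 13 genes of these lists. By more than 2 technical spreads, 0 of them were lower on both cKO-labelled arrays, against 3.57% of genes. Ifnlr1 and Irf5 were higher on both, against 4.85%, and for lists of this size these counts are near the shares. Ifnlr1, a chain of the type III interferon receptor, had signals of 0.185 and 0.225 in control cells and of 0.263 and 0.289 on the cKO-labelled arrays, differences of 0.51 and 0.36. Irf5, a factor that induces interferon and inflammatory genes, had signals of 0.0653 and 0.111 against 0.0858 and 0.144, differences of 0.39 and 0.36. Jak1 had signals of 9.68 to 12.4, Tyk2 of 0.844 to 1.07, and Socs1, the inhibitor of these kinases, of 1.38 to 1.62.

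Other interferon-stimulated genes, a list of 42 genes with 38 matched, gave 3 higher of 31 with TNF in control cells (Ccl5, Slfn2 and Psmb8), against 2.39% of all genes, and 1 lower (Gbp5), against 4.27%. With TNF on the cKO-labelled arrays, 3 of 32 were higher (Tgtp1, Ccl5 and Cxcl10), against 1.02%. Between the genotypes, 4 of 31 were lower without TNF (Gbp5, Ccl5, Cxcl10 and Psmb8), against 4.4%, and 3 of 33 with it (Ccl5, Psmb8 and Psmb9), against 3.21%, and 1 (Tgtp1) was higher with TNF, against 1.16%. The values of Gbp5, Tgtp1 and, in control cells without TNF, Cxcl10 come from patches. Ccl5, a T cell chemokine, had signals of 0.127 and 1.34 in control cells without and with TNF and of 0.042 and 0.330 on the cKO-labelled arrays, 3.39 and 2.98 higher with TNF. Psmb8, a catalytic subunit of the immunoproteasome, had signals of 0.165 and 0.427 against 0.072 and 0.116 on the cKO-labelled arrays. Slfn2 had signals of 0.076 and 0.232 against 0.090 and 0.126, and Psmb9, another immunoproteasome subunit, of 0.293 and 0.448 against 0.178 and 0.224. Lower in both comparisons of the genotypes were 7 of 28 genes of this list above background on all arrays, namely Ccl5, Psmb8, Psmb9, Ifi27l2a, Irgm2, Rtp4 and Parp10, against 3.57% of genes.

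Canonical NF-κB targets had medians farther from 0 than the members in the comparisons with TNF. Of 17 tested, 10 (Nfkbia, Relb, Tnfaip3, Ccl2, Cxcl1, Cxcl5, Il6, Mmp3, Saa3 and Lcn2) were higher with TNF in control cells, against 2.39% of all genes, with a median of 1.36. With TNF on the cKO-labelled arrays, 5 of 16 (Ccl2, Cxcl1, Cxcl5, Mmp3 and Lcn2) were higher, against 1.02%, with a median of 0.59. With TNF, 8 of 17 (Tnfaip3, Ccl2, Cxcl1, Cxcl5, Il6, Icam1, Mmp3 and Saa3) were lower on the cKO-labelled array, against 3.21%, with a median of −0.995, and 1 of 15 (Mmp3) without TNF, against 4.4%, with a median of −0.15. The NF-κB target Ccl2, a monocyte chemokine, had signals of 0.920 and 29.8 in control cells and of 0.916 and 8.23 on the cKO-labelled arrays, with patches on the control array with TNF and the cKO-labelled array without it. The members' own medians for these 4 comparisons were 0.24, 0.06, −0.45 and −0.15. Lower in both comparisons of the genotypes were 5 of 15 NF-κB targets (Cxcl1, Cxcl5, Icam1, Mmp3 and Lcn2), against 3.57% of genes.

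**Figure D4:**
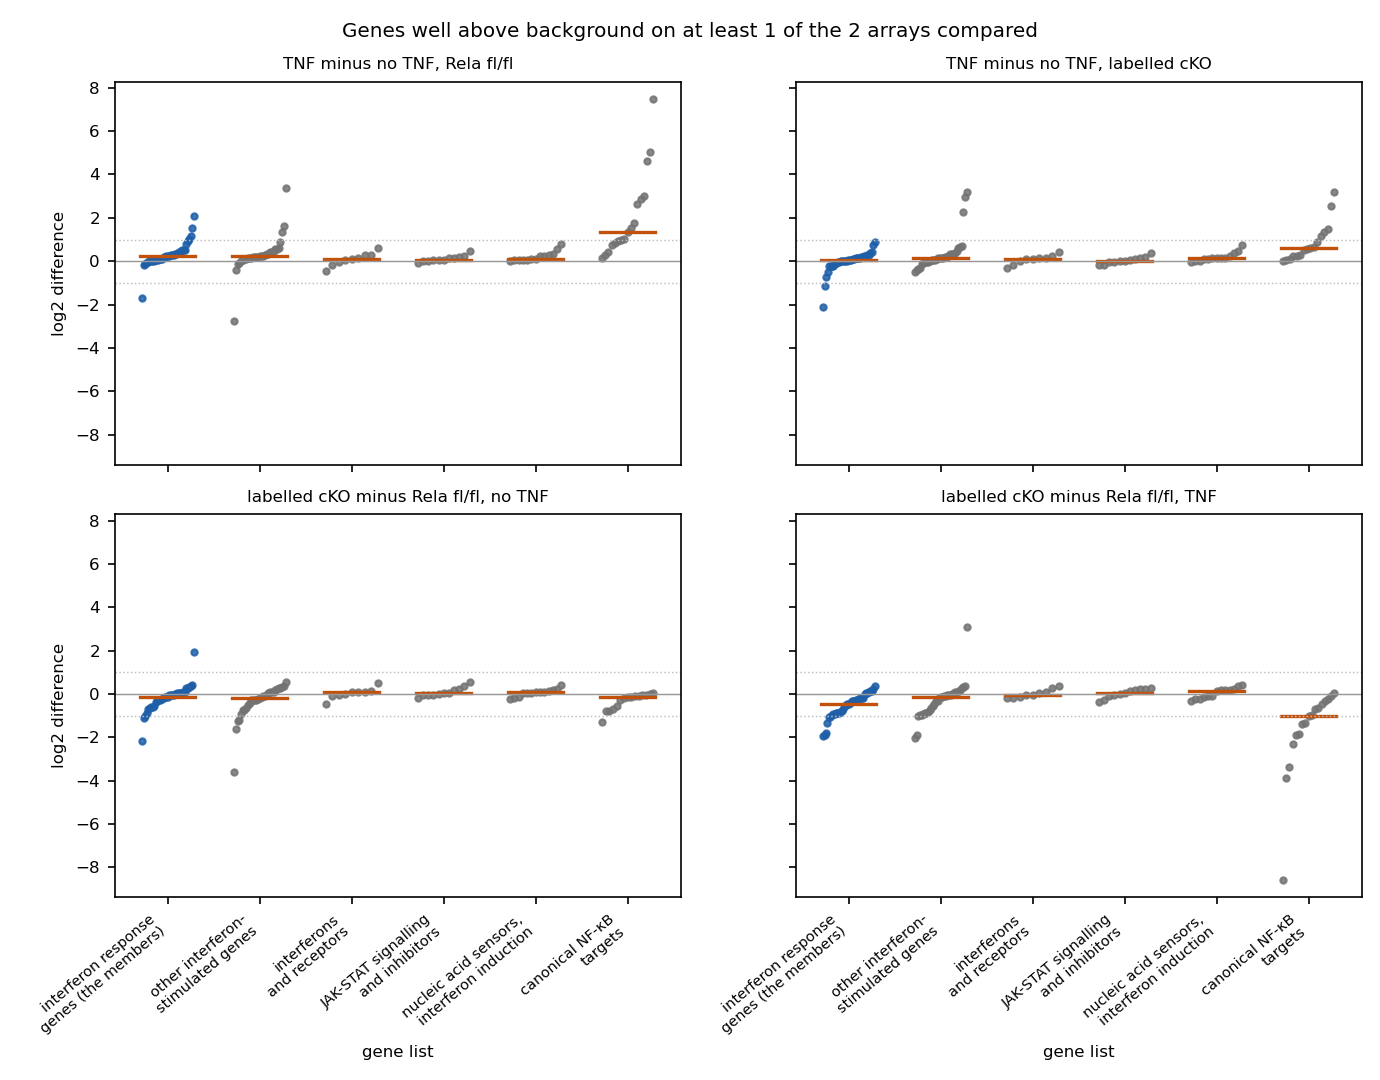
Log2 differences in the 4 comparisons (panels) for the members (blue) and 5 other lists (grey), for genes that passed the background flag on 1 or both arrays compared; each point is 1 gene, orange bars are medians, and dotted lines mark a difference of 1. The NF-κB targets reach far from 0 with TNF, with medians of 1.36 in control cells and −0.995 between the genotypes. Receptors, JAK–STAT genes and sensors, with 9 to 13 tested genes per list, stay within the dotted lines in all panels. Of all genes, 1.02% to 4.46% passed these lines per panel and direction.

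Some markers of the cells differed with the genotype label as well. All 8 chondrocyte markers had values below 0 on the cKO-labelled arrays, with and without TNF. Their medians were −0.42 without and −0.23 with TNF, where all genes had medians of 0.00 and 0.05. By more than 2 technical spreads, 3 of 8 (Acan, Matn1 and Col9a1) were lower in both, against 3.57% of genes. Col2a1 differed by −0.03 and −0.01 and Sox9 by −0.15 and −0.13, within 2 technical spreads. Matn1, a cartilage matrix protein, had signals of 90.4 and 73.8 in control cells and of 25.0 and 32.4 on the cKO-labelled arrays. The fibroblast-like markers lay the same way, with 4 of 5 below 0 without TNF (median −0.20) and 5 of 5 with TNF (median −0.28). Thy1, a surface protein of fibroblasts, differed by −1.59 without and −0.28 with TNF. The summed signal of the leukocyte markers was 126 and 131 in control cells and 158 and 137 on the cKO-labelled arrays. It was carried by the bright probes of Siglech and Itgam, whose specificity was not tested. Of the 9 tested, 4 were above 0 and 5 below it between the genotypes, both without and with TNF. Lyz2, a macrophage lysozyme, was lower in both, with signals of 0.661 (in a patch) and 0.247 against 0.153 and 0.128. Tyrobp, an adaptor of myeloid cells, was above background on 3 arrays, with signals of 0.119 and 0.060 against 0.039 and 0.040. Cd14, a receptor of monocytes, was higher on the cKO-labelled arrays, by 0.31 and 0.23. Adgre1, a macrophage marker, was 2.87 higher without TNF, where its spot lies in a patch, and differed by −0.50 with TNF, and Csf1r, the macrophage growth factor receptor, differed by −0.13 and 0.05. The part of these cells in the differences of the interferon response genes was not tested.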

How the data were processed

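RNA of 4 samples was hybridised to 1-colour Agilent arrays on 1 slide, read in 1 scan. The authors deposited each spot's intensity from Agilent Feature Extraction 10.10.1.1, background-subtracted and detrended, and a value table equal to that intensity times 1 factor per array (1.83, 1.77, 1.79 and 1.78; basis not stated), with column medians of 69.4 to 88.5. From the deposited intensity, log2 values were lowered by the 75th percentile of the 59305 transcript spots without outlier flags (138 to 225 flagged per array; none saturated; percentiles of 589 to 633). Spots of a probe were averaged. Accessions were matched to RefSeq symbols of GRCm38.p6 (27235 of 55681 probes); the array files name mm9, and coordinates come only from the RefSeq promoter table. The number of arrays limits the precision, and no p-values were computed.

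Patches are spots with 3 or more single-array bright spots within 5 rows and 2 columns. The members and all lists were chosen with earlier results of these data known, as was the patch rule, and the limit of 2 technical spreads after the values had been seen. Named genes are those past a log2 difference of 1, Stat2 and the Irf genes, members with opposite TNF differences and the 5 brightest, and other members and marker genes given with values were chosen after their values had been seen. The values of a gene in the JAK–STAT list, counted there, are not reported here. Python 3.11.15, numpy 2.4.6, pandas 2.3.3, matplotlib 3.10.9, and limma 3.58.1 in R 4.3.3 (quantile; normexp, offset 50, on each spot's median intensity) were used.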

Additional observations from a re-analysis of the deposited data

Results flagged for a closer look

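For 2 members the differences with TNF had opposite signs in the genotypes, both past 2 technical spreads. Ifi44, which is induced by type I interferon, was higher with TNF in control cells, by 1.52, and differed by −0.72 on the cKO-labelled arrays. Gbp3, a guanylate-binding protein, was higher by 0.77 in control cells and differed by −2.11 on the cKO-labelled arrays. Over the alternative settings the values of Gbp3 ranged from 0.41 to 0.85 and from −2.22 to −0.997, and with normexp it was not called. With 1 array per condition these differences were not tested. The spot of Ifi44 in control cells with TNF and the spots of Gbp3 in control cells with TNF and on the cKO-labelled array without TNF lie in bright patches, and no value of either gene is left when spots in patches are left out.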

How the results depend on the processing

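Each condition has 1 array, so leaving out an array was not possible. No paired analysis was possible because each group holds 1 array and no test was run. No difference of 1 or more turned its sign, and the median differences of the members moved by less than the technical spread under each alternative run. The median for TNF on the cKO-labelled arrays, 0.06, did turn its sign, to −0.05 without scaling, −0.04 with the percentile over probes above background and −0.05 with the authors' values. Of 145 differences of single members, 34 turned their sign under at least 1 alternative, all of them smaller than 2 technical spreads, with a largest size of 0.24 (Ifih1 with TNF in control cells). Of 1252 differences of single members recomputed, 1155 moved by less than the technical spread and 97 by more.

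Counts of members moved by more than 1.5 times as follows. For TNF in control cells, the 4 higher became 2 with normexp, 1 at a 3-fold limit and 2 with patches left out, and the 1 lower became 0 with normexp, with both arrays above background and with patches left out. For TNF on the cKO-labelled arrays, the 0 higher became 1 with quantile normalization and 2 at a 1.5-fold limit, and the 2 lower became 1 with quantile normalization, both arrays above background, the mean over probes and a 3-fold limit, and 0 with normexp and with patches left out. Between the genotypes without TNF, the 1 higher became 0 with normexp and with patches left out, and the 3 lower became 1 with normexp and at 3-fold and 7 at 1.5-fold. With TNF, the 0 higher became 1 with no filter, and the 6 lower became 3 with normexp and at 3-fold and 15 at 1.5-fold. Under the remaining alternatives the 4 higher with TNF in control cells ranged from 3 (the percentile over probes above background, the authors' values) to 6 (1.5-fold, no filter), the 2 lower on the cKO-labelled arrays were 2 or 3, the 3 lower without TNF were 2 or 3, and the 6 lower with TNF ranged from 5 to 8 (without scaling). With the mean over probes the 4 hold Irf1 in the place of Iigp1, by a value of 1.12 that takes in a dim probe's signals below background and is not a measured difference. The share of all genes called moved with the settings too. Over the 4 comparisons and both directions it was 1.02% to 4.46% in the main setting, 3.69% to 8.44% at 1.5-fold, 0.333% to 3.21% at 3-fold, 0.241% to 2.76% with normexp, 0.445% to 2.14% with both arrays above background, 3.63% to 6.37% with no filter and 0.559% to 1.56% with patches left out. For the genes lower between the genotypes with TNF it was 3.21%, 5.75% at 1.5-fold, 2.10% at 3-fold and 1.64% with normexp. With patches left out 35 matched members remain. Over all genes, the share of higher among called genes was 18.7% for TNF on the cKO-labelled arrays, 29.6% with quantile normalization, 36.6% with patches left out, 36.8% with no filter and 10.8% with normexp. Between the genotypes with TNF it was 26.6%, and it ranged from 13.9% at 3-fold to 57.9% with no filter, with 52.2% with patches left out. The median of all genes for TNF on the cKO-labelled arrays was 0.06, and −0.05 both without scaling and with the authors' values.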
